A study of Mus musculus with 342 samples.

Results

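CC065/Unc is a recombinant inbred mouse line of the Collaborative Cross, a panel bred from genetically diverse founder strains. Its liver was profiled in 6 male mice of 8 to 10 weeks, which make up 6 of the 342 arrays and 3 of the 171 study pairs of the series. The samples were taken by their line label. In each pair, 1 mouse received TAK-875 at 600 mg/kg in a single oral gavage and 1 mouse received the methylcellulose vehicle at 0 mg/kg, and the liver was collected 24 hours later. The 3 TAK-875 mice and the 3 vehicle mice carry the pair numbers 2, 3 and 4 of the line, and each array is a separate animal of 1 inbred genotype. The other 43 lines, treated in the same way, give 168 pairs against which the line was set. Affymetrix HT MG-430 PM arrays measured whole liver RNA, so that fewer cells of a type and less RNA per cell cannot be told apart. The compound is named as the sample labels and the design text give it, since the series title carries a different number.

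TAK-875 (fasiglifam) activates GPR40, a receptor for free fatty acids known best from pancreatic beta cells, and its development for type 2 diabetes was stopped over liver injury. Several kinds of hepatocyte genes bear on such a compound. PPARA, a nuclear receptor activated by fatty acids, drives genes of fatty acid oxidation in peroxisomes and mitochondria. The receptors CAR and PXR and the factor NRF2 drive genes of drug metabolism and export. Hepatocytes also make the acute phase proteins, whose genes are switched on by cytokines such as interleukin 6 during inflammation and tissue injury.

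All values are log2 expression values. The 17 hepatocyte markers had a mean level of 12.63, 12.60 and 12.60 in the TAK-875 mice of pairs 2, 3 and 4, against 12.59, 12.62 and 12.51 in their vehicle mice, which is near the top of the scale in every array. On 200 genes that differ between lines, all 6 arrays lay nearest to CC065/Unc. The array medians over the 9093 genes tested were 6.30, 6.26 and 6.38 in TAK-875 mice and 6.18, 6.28 and 5.97 in vehicle mice. The vehicle array of pair 4 is the low one, and the median response of all genes is 0.10 as deposited, 0.02 after a further quantile normalization and -0.07 with each array centred on its median. Changes of gene groups are therefore read against these medians. Within their own group, TAK-875 arrays had median correlations of 0.980 to 0.982, against 0.957 to 0.963 for vehicle arrays.

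The first comparison asks which genes TAK-875 changed in this line. Ehhadh, Acaa1b and Eci1 of fatty acid oxidation and Ephx1 and Abcc3 of drug handling rose, by 1.67-fold to 2.30-fold. The acute phase gene Orm3 fell 9.11-fold in values near the bottom of the scale, the macrophage receptor Msr1 2.23-fold on the brightest of its 3 probe sets, and the other genes that fell have varied roles. At an adjusted p of 0.05 in limma, which shared 1 estimate of spread per gene over all lines, 25 of 9093 genes were called (0.275%). Of these, 14 were higher (0.154%) and 11 lower (0.121%) in TAK-875 mice. By number of calls the line ranked 25th of the 44 lines, and by the size of its response over all genes (root mean square 0.353) it ranked 8th. The pairs differed among themselves. Over all genes the differences of pairs 2 and 3 correlated by 0.11, those of pairs 2 and 4 by 0.22 and those of pairs 3 and 4 by -0.07. Changes of more than 2-fold numbered 602 in pair 2, 264 in pair 3 and 1181 in pair 4.

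The number of calls leaned on the pairs. Without pair 2 there were 2 higher (Ephx1 and Vapb) and 1 lower (Msr1), without pair 4 there were 3 higher and 4 lower, and without pair 3 there were 70 higher and 31 lower. Of the 25 genes, 3 remained called without pair 2, 21 without pair 3 and 5 without pair 4 (Acaa1b, Dtna, Eci1, Ephx1 and Mgat5), and 1, Ephx1, remained in all 3 cases. With arrays centred on their medians, 6 genes were higher and 32 lower, and after a further quantile normalization 9 were higher and 16 lower. With arrays unpaired, 9 were higher and 10 lower, and Orm3, Pctp, Abcc3, Gm5817, Otud6b and Tcf7l2 were not called. Called under all 3 scalings were 16 of the 25 genes, namely Ehhadh, Ephx1, Pctp, Tmem18 and Vapb among those higher and Orm3, Prtn3, Rad51b, Dnajc12, Slc41a2, Gas6, Msr1, Cfap221, Mgat5, Rpl37 and Dtna among those lower.

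**Figure D1:**
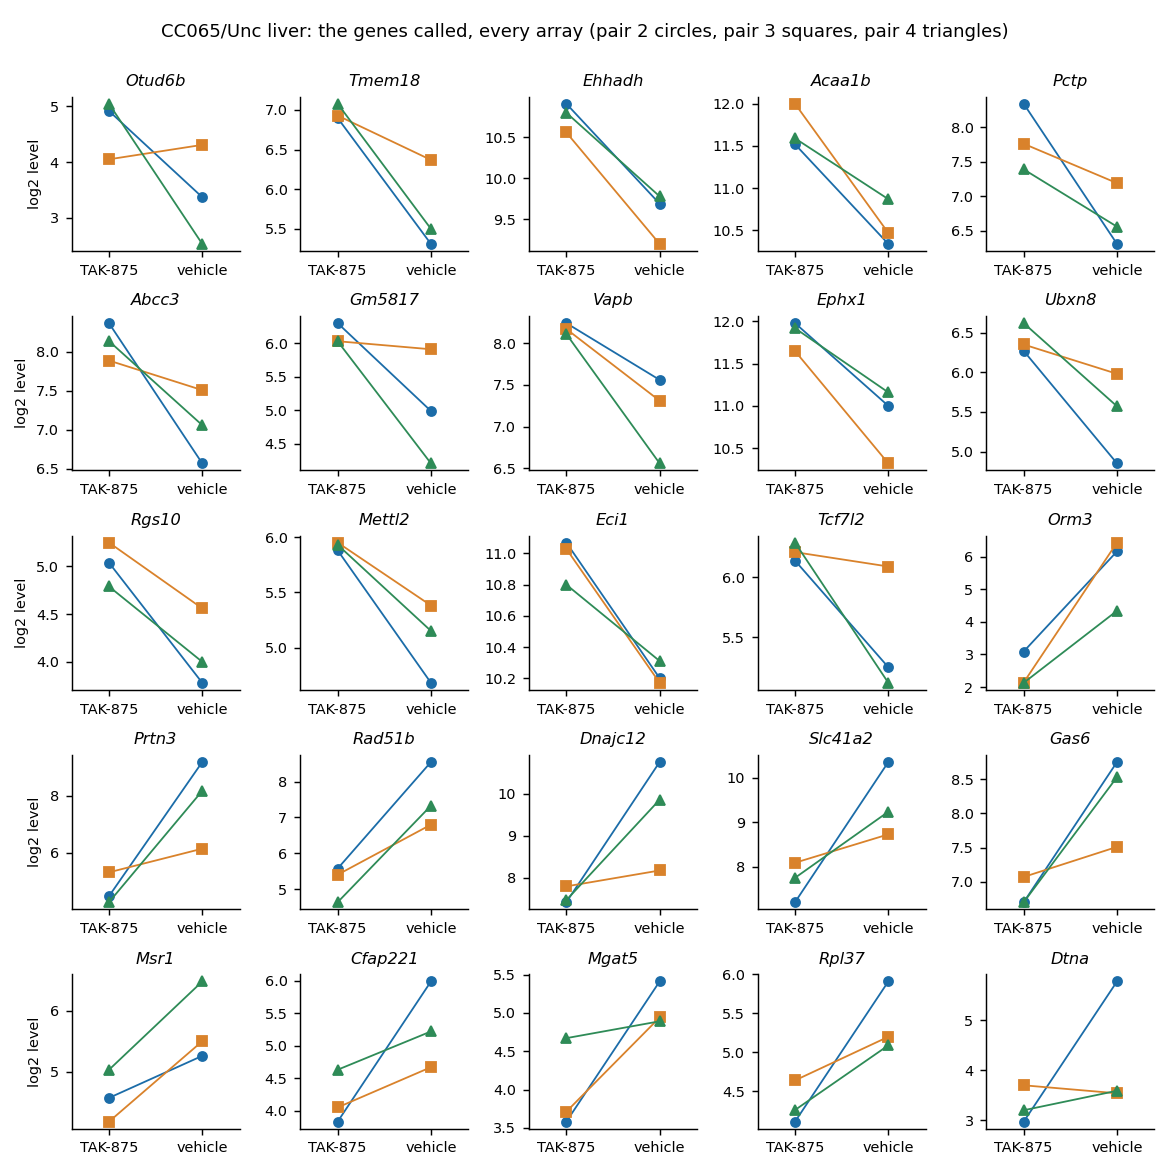
Log2 level (vertical axes, scaled per gene) of the 25 genes called in CC065/Unc, with the TAK-875 mouse left and the vehicle mouse right and a line joining the mice of a pair. Circles are pair 2, squares pair 3 and triangles pair 4. Otud6b and Dtna are the called genes whose pair 3 runs against the other pairs.

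Peroxisomal and mitochondrial enzymes of fatty acid oxidation were among the genes that rose. Ehhadh, which catalyses a pair of steps of peroxisomal beta-oxidation, stood at 10.91, 10.56 and 10.80 in the TAK-875 mice of pairs 2, 3 and 4, against 9.69, 9.20 and 9.78 in their vehicle mice. Every TAK-875 mouse lay above every vehicle mouse, which also held for 10.2% of all genes. The rise was 2.30-fold (log2 1.20 ± 0.26 SE, n = 3 pairs, limma adjusted p = 0.0148). Acaa1b, the peroxisomal thiolase of the same pathway, stood at 11.52, 12.00 and 11.59 in TAK-875 mice, against 10.34, 10.47 and 10.87 in vehicle mice. The groups again did not overlap, and the rise was 2.21-fold (log2 1.14 ± 0.26 SE, adjusted p = 0.0185). With centred arrays the adjusted p of Acaa1b was 0.0842.

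Eci1, a mitochondrial isomerase that lets unsaturated fatty acids enter beta-oxidation, stood at 11.07, 11.03 and 10.80 in TAK-875 mice, against 10.20, 10.17 and 10.31 in vehicle mice. Its mice were the least scattered within each group of these enzymes, and it rose 1.67-fold (log2 0.74 ± 0.14 SE, limma adjusted p = 0.00267, or 0.101 with centred arrays). Pctp, which carries phosphatidylcholine between membranes, stood at 8.34, 7.76 and 7.39 in TAK-875 mice, against 6.31, 7.19 and 6.56 in vehicle mice. Pair 2 had the widest gap, and the rise was 2.21-fold (log2 1.14 ± 0.25 SE, adjusted p = 0.0167).

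These 4 genes were the called members of the 43 measured PPARA targets. In all 3 pairs 24 of the 43 were higher and 0 were lower, where 21.1% of all genes were higher and 9.33% lower in all 3 pairs. The list median was 0.32, against 0.10 for all genes, and after quantile normalization it was 0.29, against 0.02. Without pair 2, 3 or 4 the list median was 0.21, 0.43 and 0.48, against 0.10, 0.15 and 0.04 for all genes. The mean of the other lines had 38 of the 43 called higher and 2 lower, with a list median of 0.27. The mean response over the list was 0.46 in CC065/Unc and 0.36 in the other lines, which put the line 18th of 44. The highest member by size, Acot1, a cytosolic acyl-CoA thioesterase, stood at 5.53, 6.21 and 5.70 in TAK-875 mice, against 2.83, 3.77 and 4.38 in vehicle mice. Its groups did not overlap, as in 10.2% of all genes in that direction, and its log2 difference of 2.15 ± 0.69 SE did not pass (limma adjusted p = 0.162). Aldh3a2, which oxidizes fatty aldehydes, differed by 0.84 ± 0.31 SE (adjusted p = 0.279), and Cyp4a10, a fatty acid omega-hydroxylase, by 0.55 ± 0.23 SE (adjusted p = 0.363).

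Drug handling genes rose too. Ephx1, the microsomal epoxide hydrolase that opens reactive epoxides, stood at 11.98, 11.65 and 11.92 in TAK-875 mice, against 11.00, 10.32 and 11.16 in vehicle mice. All TAK-875 mice lay above all vehicle mice. The rise was 2.04-fold (log2 1.03 ± 0.17 SE, limma adjusted p = 0.00012), and it passed without each of the pairs 2, 3 and 4. Across the 44 lines it was the highest response of this gene, while the contrast with the mean of the other lines gave 0.65 ± 0.17 SE (adjusted p = 0.0689). Abcc3, the exporter that carries bile acids and glucuronides back into blood, stood at 8.37, 7.89 and 8.14 in TAK-875 mice, against 6.57, 7.51 and 7.06 in vehicle mice. The groups did not overlap, and the rise was 2.13-fold (log2 1.09 ± 0.26 SE, adjusted p = 0.0294). That call was lost with centred arrays (adjusted p = 0.118) and after quantile normalization (adjusted p = 0.0595).

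Ephx1 and Abcc3 were the called members of the 26 CAR and PXR targets and also of the 29 NRF2 targets. In all 3 pairs 8 of the 26 and 9 of the 29 were higher, where 21.1% of all genes were. The medians of these lists were 0.24 and 0.17, against 0.10 for all genes, and without pair 4 they were 0.14 and 0.10, against 0.04. Nqo1, a quinone reductase and a classical NRF2 target, stood at 6.31, 6.09 and 6.50 in TAK-875 mice, against 5.37, 4.90 and 5.24 in vehicle mice. It did not overlap between groups, as in 10.2% of all genes in that direction. Its log2 difference of 1.13 ± 0.33 SE did not pass (limma adjusted p = 0.116). Cyp2b10, a classical CAR target, differed by 0.04 ± 0.73 SE, and Cyp3a11, a PXR target, by 0.26 ± 0.18 SE (adjusted p = 0.992 and 0.641).

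The transporters and enzymes of bile acids other than Abcc3 did not pass the test. Abcb11, the canalicular bile salt pump, differed by 0.12 ± 0.41 SE on the log2 scale, and Abcc2, the canalicular exporter of conjugates, by 0.26 ± 0.27 SE. Abcb4, which moves phosphatidylcholine into bile, stood at 9.32, 8.68 and 8.27 in TAK-875 mice, against 8.18, 8.78 and 7.84 in vehicle mice, and its groups overlapped. Slc10a1, the uptake carrier NTCP, stood at 11.20, 11.20 and 11.21 in TAK-875 mice, against 10.84, 11.16 and 10.83 in vehicle mice (0.26 ± 0.19 SE). That is a small gap without overlap, as in 10.2% of all genes in that direction. Cyp7a1, whose enzyme starts and limits bile acid synthesis, differed by -0.26 ± 0.96 SE, with TAK-875 mice at 5.07, 8.80 and 8.37 and vehicle mice at 6.88, 8.36 and 7.80. Cyp8b1, which makes cholic acid, differed by 0.20 ± 0.45 SE in this line, while the mean of the other lines fell by 0.63. The difference between them, 0.83 ± 0.45 SE, did not pass (adjusted p = 0.569).

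The other genes that rose have varied roles. Vapb, an endoplasmic reticulum protein of membrane contact sites, stood at 8.24, 8.17 and 8.11 in TAK-875 mice, against 7.56, 7.31 and 6.56 in vehicle mice. Its TAK-875 mice were nearly level and all above the vehicle mice, a rise of 2.04-fold (log2 1.03 ± 0.19 SE, limma adjusted p = 0.00169). Tmem18, a nuclear envelope protein, stood at 6.90, 6.93 and 7.08 in TAK-875 mice, against 5.31, 6.37 and 5.50 in vehicle mice (log2 1.25 ± 0.29 SE, adjusted p = 0.0219). Tcf7l2, a transcription factor of the Wnt pathway, stood at 6.14, 6.21 and 6.29 in TAK-875 mice, against 5.25, 6.09 and 5.12 in vehicle mice (log2 0.73 ± 0.18 SE, adjusted p = 0.0362). In Tmem18 and Tcf7l2 the vehicle mouse of pair 3 was close to the TAK-875 mice, and Tcf7l2 was not called under the other scalings (adjusted p = 0.0866 centred and 0.102 quantile normalized) or over the mean of its 2 probe sets (0.0618).

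Rgs10, which shortens G protein signals, rose by 0.91 ± 0.21 SE on the log2 scale (limma adjusted p = 0.0197). Mettl2, a tRNA methyltransferase, rose by 0.85 ± 0.20 SE, and Ubxn8, a cofactor of protein degradation at the endoplasmic reticulum, by 0.95 ± 0.23 SE (adjusted p = 0.022 and 0.0223). Gm5817 rose by 1.08 ± 0.26 SE (adjusted p = 0.0294). Otud6b, a deubiquitinase, was called with 1.27 ± 0.32 SE (adjusted p = 0.0362), although in pair 3 the TAK-875 mouse, at 4.05, lay below the vehicle mouse, at 4.31. Sucnr1, the succinate receptor, differed by 1.98 ± 0.51 SE, more than any of the called rises, but did not pass (adjusted p = 0.0536).

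The acute phase genes went the other way. Orm3, an orosomucoid (an acute phase plasma protein), stood at 3.09, 2.14 and 2.13 in the TAK-875 mice of pairs 2, 3 and 4, against 6.16, 6.43 and 4.34 in their vehicle mice. The groups did not overlap, and it fell 9.11-fold (log2 -3.19 ± 0.75 SE, limma adjusted p = 0.022). Its TAK-875 values lie near the lowest value of the table, 1.62, and no detection calls were used, so the size of the fold is uncertain. The call was lost without pair 2, 3 or 4 (adjusted p = 0.299, 0.139 and 0.0741) and with unpaired arrays (0.0865). Orm3 was the called member of the 30 measured acute phase genes. In all 3 pairs 22 of the 30 were lower and 1 was higher, where 9.33% of all genes were lower and 21.1% higher. In 19 of the 30 every TAK-875 mouse lay below every vehicle mouse, against 4.17% of all genes. The list median was -0.51, against 0.10 for all genes, and it was -0.46, -0.66 and -0.64 without pair 2, 3 or 4.

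Saa2 and Saa1 encode serum amyloid A, the acute phase apolipoprotein of mouse plasma. Saa2 stood at 8.76, 7.40 and 4.30 in TAK-875 mice, against 11.52, 11.25 and 11.19 in vehicle mice. The vehicle mice were level and high, while the TAK-875 mice were scattered below them. The log2 difference was -4.50 ± 1.35 SE, and it did not pass (limma adjusted p = 0.127). The responses of the other lines had an SD of 1.43 in this gene. By its class, the probe set may also bind unrelated transcripts. Saa1 stood at 10.95, 10.47 and 8.37 in TAK-875 mice, against 12.88, 12.82 and 12.62 in vehicle mice (-2.85 ± 1.04 SE, adjusted p = 0.259).

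Orm2 stood at 10.34, 10.13 and 7.46 in TAK-875 mice, against 12.78, 12.00 and 11.40 in vehicle mice (log2 -2.75 ± 0.89 SE, limma adjusted p = 0.172). Lcn2, which withholds iron from bacteria, stood at 8.41, 6.35 and 5.48 in TAK-875 mice, against 9.92, 10.96 and 8.59 in vehicle mice (-3.08 ± 1.00 SE, adjusted p = 0.182). Mt1, a metal-binding metallothionein, stood at 10.80, 8.50 and 9.53 in TAK-875 mice, against 12.97, 11.56 and 11.92 in vehicle mice (-2.54 ± 0.95 SE, adjusted p = 0.285). In each of these genes all TAK-875 mice lay below all vehicle mice, and in Orm2 and Lcn2 the lowest mouse was the TAK-875 mouse of pair 4. Some other members of the list moved less. Hp, the haemoglobin scavenger haptoglobin, differed by -0.27 ± 0.10 SE and Fgb, a fibrinogen chain, by -0.37 ± 0.17 SE (adjusted p = 0.309 and 0.423).

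The stretches of promoter below are from acute phase genes picked for display, each of which holds a match to the pattern named next. Capitals mark matches to the letters TTGCNNAA, searched on both strands, a core pattern bound by factors of the C/EBP family that drive acute phase genes. The sequences are from RefSeq on GRCm38.p6, read along each gene's own strand, and belong to the C57BL/6J reference, not to CC065/Unc.
Orm2, chr4:63362299-63362366, plus strand: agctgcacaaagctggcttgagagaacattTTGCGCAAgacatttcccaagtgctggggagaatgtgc
Orm3, chr4:63356007-63356074, plus strand: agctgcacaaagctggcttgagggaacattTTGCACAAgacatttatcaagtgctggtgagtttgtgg
Saa1, chr7:46743125-46743192, minus strand: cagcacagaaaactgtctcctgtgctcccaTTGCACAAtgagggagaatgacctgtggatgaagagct
Saa2, chr7:46751620-46751687, plus strand: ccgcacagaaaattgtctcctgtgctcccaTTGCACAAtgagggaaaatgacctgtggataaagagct
Saa3, chr7:46715738-46715805, minus strand: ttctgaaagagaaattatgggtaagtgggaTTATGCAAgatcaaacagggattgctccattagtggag
Lcn2, chr2:32387918-32387985, minus strand: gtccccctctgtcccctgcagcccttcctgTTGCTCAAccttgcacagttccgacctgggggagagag
The matches begin 120, 121, 182, 183, 99 and 216 bases before the start of Orm2, Orm3, Saa1, Saa2, Saa3 and Lcn2. Of the 26 acute phase genes with a promoter in the table, 13 (50%) hold a match in the window of 250 bases before to 50 after the start, against 10.8% of all 32851 promoters. Of 35 PPARA targets, 6 (17.1%) hold one. In all 4 motifs were searched in both lists, each on both strands. The half-site AGGTCA of nuclear receptors is in 11 of the 35 PPARA targets (31.4%) and 7 of the 26 acute phase genes (26.9%), against 16.3% of all promoters. The DR1 motif, a direct repeat of a looser form of that half-site, is in 1 of the 35 (2.86%) and 0 of the 26, against 0.381%. A core pattern of NF-kappa-B is in 2 of the 35 (5.71%) and 0 of the 26, against 4.59%. A list gene counts if any of its promoters holds a match, while the shares of all promoters count each promoter singly. The 2 kinds of share are therefore not fully alike. A match is a description of the reference sequence.

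**Figure D2:**
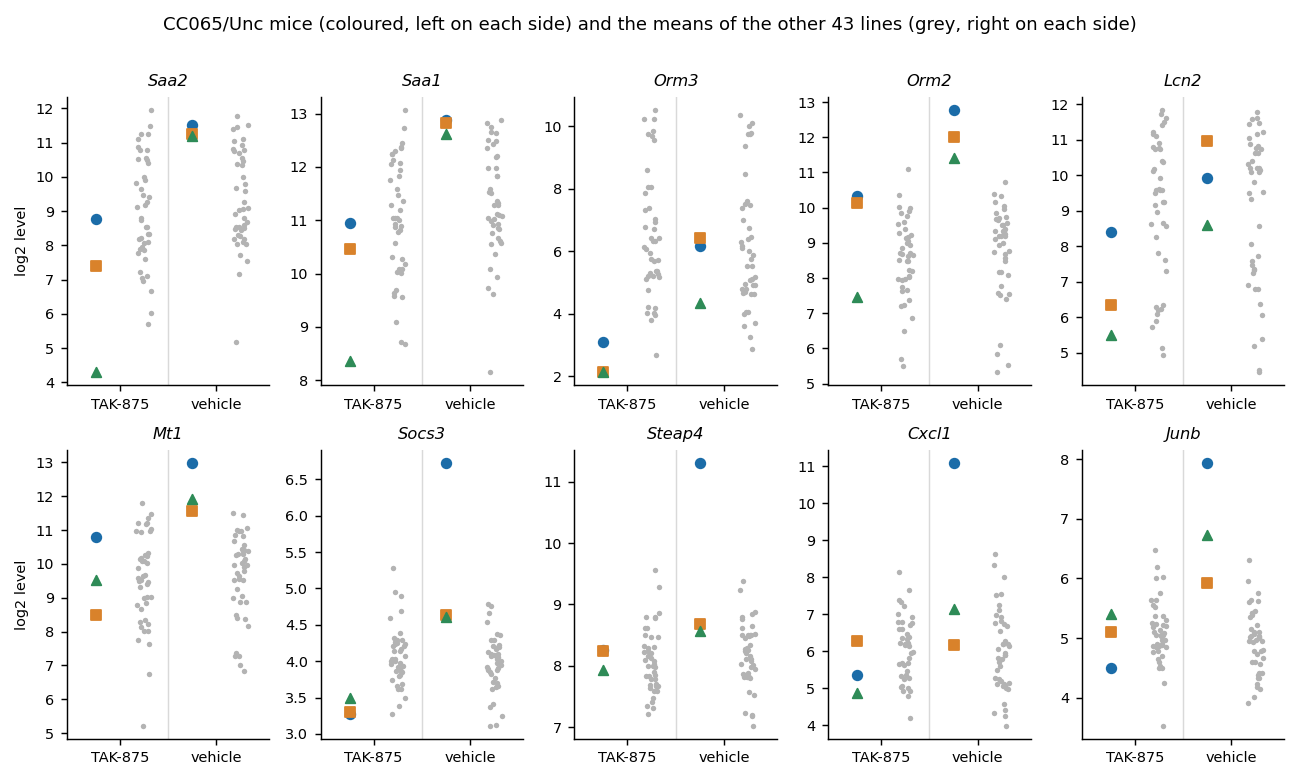
Log2 level (vertical axes) of 10 acute phase and stress genes, with TAK-875 on the left and vehicle on the right of each panel. Coloured symbols are the CC065/Unc mice (circle pair 2, square pair 3, triangle pair 4) and grey points the means of the other 43 lines. In Orm2 and Mt1 all 3 vehicle mice lie above the other line means, in Socs3 and Steap4 that of pair 2 does, and in Orm3 the TAK-875 mice sit at 2.13 to 3.09, at the bottom.

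Set against the other lines, the acute phase response of CC065/Unc was the lowest of all. The mean response over the 30 genes was -1.08 in CC065/Unc and -0.06 in the other lines, which put the line 44th of 44. For 14 of the 30 genes its response was the lowest of the 44 lines, against 2.5% of all genes, and for 23 of the 30 it was among the 5 lowest, against 8.97%. The mean level over the list was 9.36 in TAK-875 mice of CC065/Unc, against 9.75 in TAK-875 mice of the other lines, and 10.44 in its vehicle mice, against 9.81 in theirs. The vehicle level of the list ranked 2nd of 44 lines, and the response and the vehicle level share the vehicle arrays. In vehicle mice 13 of the 30 genes were called higher than in the other lines and 0 lower, against 6.03% and 12.2% of all genes.

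The order within the vehicle mice was not even. The vehicle mouse of pair 2 had the highest of the 3 vehicle levels in 20 of the 30 acute phase genes. It also did in 19 of 33 genes of the unfolded protein response, but in 7 of 62 genes of the mitochondrial respiratory chain. The share over all genes was not counted, so the 20 is not read as a trait of the list. In Socs3, a feedback inhibitor of cytokine signals, the vehicle mouse of pair 2 stood at 6.72, against 4.63 and 4.61 in those of pairs 3 and 4. The TAK-875 mice were at 3.27, 3.30 and 3.50. Socs3 differed by -1.96 ± 0.55 SE (limma adjusted p = 0.092), and by -1.22 without pair 2. Steap4, a metalloreductase induced by inflammation, stood at 8.25, 8.24 and 7.93 in TAK-875 mice, against 11.30, 8.68 and 8.56 in vehicle mice. Cxcl1, a chemokine that attracts neutrophils, stood at 5.36, 6.28 and 4.89 in TAK-875 mice, against 11.08, 6.18 and 7.14 in vehicle mice. In both genes the vehicle mouse of pair 2 stands apart. Without pair 2 the differences were -0.53 and -1.08, against -1.37 and -2.62 with it.

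Of the 8 measured neutrophil markers 4 had their highest vehicle level in the vehicle mouse of pair 2, and the share over all genes was not counted. That mouse stood apart by a wide gap in S100a9 and S100a8. S100a9, a calcium-binding protein of neutrophil granules, stood at 4.24, 4.90 and 5.08 in TAK-875 mice, against 8.12, 4.63 and 4.94 in vehicle mice, and S100a8, its partner, at 3.37, 3.63 and 3.43, against 6.12, 3.19 and 3.78. Outside pair 2 neither gene separated the groups. Over the 8 markers the mean level was 3.64, 3.83 and 3.85 in TAK-875 mice, against 4.61, 3.77 and 3.78 in vehicle mice. In all 3 pairs 2 of 8 (25%) were lower, against 9.33% of all genes, and 0 were called. The part of these cells in the acute phase result was not tested, and the median of the acute phase list without pair 2 is given above.

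Among markers of Kupffer cells, the resident macrophages of the liver, 1 gene fell. Msr1, a scavenger receptor of macrophages, stood at 4.57, 4.18 and 5.03 in TAK-875 mice, against 5.26, 5.50 and 6.48 in vehicle mice. It fell 2.23-fold (log2 -1.16 ± 0.24 SE, limma adjusted p = 0.00985), and the call was kept without pair 2 or 3 (adjusted p = 0.0191 and 0.0428) and lost without pair 4 (0.261). The gene has 3 probe sets, and their mean gave -0.45 (adjusted p = 0.298). It was the called gene among 21 markers, of which 12 were lower and 0 higher in all 3 pairs, against 9.33% and 21.1% of all genes. The list median was -0.53, against 0.10 for all genes and -0.19 in the mean of the other lines, and it was -0.35, -0.49 and -0.78 without pair 2, 3 or 4. The mean of the other lines had 14 of the 21 called lower and 0 higher, against 12.4% and 14.9% of all genes. A fall of these markers was thus not particular to CC065/Unc, whose mean list response of -0.51, against -0.16, ranked 41st of 44. The mean level of the 21 markers was 5.98, 6.24 and 6.26 in TAK-875 mice, against 6.81, 6.81 and 6.41 in vehicle mice, which do not overlap.

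The Kupffer cell genes did not move evenly. Cd5l, a secreted macrophage protein, stood at 8.90, 9.92 and 9.48 in TAK-875 mice, against 10.53, 10.64 and 10.15 in vehicle mice (log2 -1.01 ± 0.33 SE, limma adjusted p = 0.182). C1qa, a chain of complement C1q, stood at 7.57, 7.72 and 7.64 in TAK-875 mice, against 8.44, 8.42 and 8.08 in vehicle mice (-0.67 ± 0.27 SE, adjusted p = 0.328). In contrast, the Kupffer cell receptors Clec4f and Vsig4 overlapped between groups (-0.50 ± 0.26 SE and -0.37 ± 0.31 SE), and Adgre1, the macrophage antigen F4/80, differed by -0.19 ± 0.31 SE. Liver endothelial markers had a median of 0.06 and stellate cell markers one of -0.04, against 0.10 for all genes, with 0 called in either list.

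Immediate early and interferon genes had lower medians than all genes without a called member. The counts in all 3 pairs compare with 9.33% lower and 21.1% higher among all genes. Of 24 immediate early genes 9 were lower in all 3 pairs and 0 higher (median -0.29, against 0.12 in the mean of the other lines). Junb, a subunit of the transcription factor AP-1, stood at 4.50, 5.10 and 5.41 in TAK-875 mice, against 7.93, 5.93 and 6.72 in vehicle mice (log2 -1.85 ± 0.61 SE, limma adjusted p = 0.182). Of 27 interferon-stimulated genes 9 were lower and 1 higher in all 3 pairs (median -0.29). In the mean of the other lines, with a median of -0.08, 7 of the 27 were called lower, against 12.4% of all genes. Of 33 genes of the unfolded protein response 12 were lower and 1 higher (median -0.07), where the mean of the other lines had 14 of the 33 called higher, against 14.9% of all genes. Creld2, a chaperone of that response, differed by -0.48 ± 0.41 SE in this line and rose by 0.42 in the mean of the other lines. The 35 proteasome genes had a median of 0.15, and 21 were higher and 1 lower in all 3 pairs, with 0 called. The mean of the other lines had 28 of the 35 called higher, against 14.9% of all genes. The mitochondrial respiratory chain, with 62 genes, had a median of 0.05, and p53 targets, with 20 genes, one of 0.03.

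**Figure D3:**
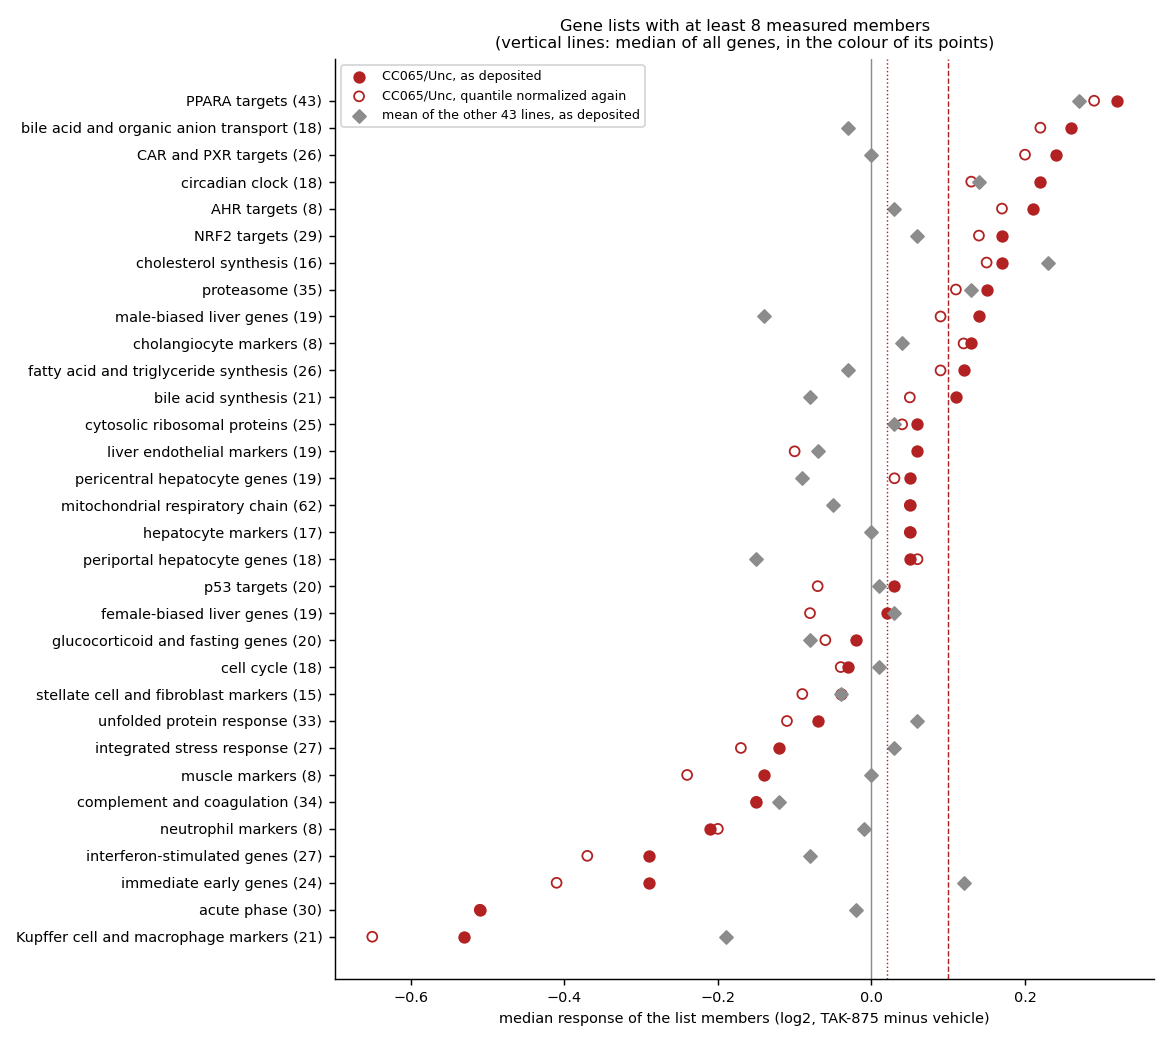
Median response (horizontal axis, log2, TAK-875 minus vehicle) of each gene list with at least 8 measured members, whose number is in brackets. Filled circles are CC065/Unc as deposited, open circles the same after quantile normalization and diamonds the mean of the other 43 lines. The vertical lines mark all genes at 0.10 (dashed), 0.02 (dotted) and 0.00 (solid). PPARA targets are highest at 0.32, and acute phase genes and Kupffer cell markers lowest at -0.51 and -0.53.

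The remaining genes that fell do not share a known role. Prtn3, proteinase 3 (a serine protease known from neutrophil granules), stood at 4.48, 5.32 and 4.27 in TAK-875 mice, against 9.19, 6.15 and 8.18 in vehicle mice. The groups did not overlap, and it fell 8.87-fold (log2 -3.15 ± 0.67 SE, limma adjusted p = 0.0134). Unlike S100a8 and S100a9, it was high in the vehicle mice of both pair 2 and pair 4. Rad51b, which acts in DNA repair by homologous recombination, stood at 5.57, 5.40 and 4.63 in TAK-875 mice, against 8.55, 6.80 and 7.33 in vehicle mice (-2.36 ± 0.55 SE, adjusted p = 0.0219). Dnajc12, a co-chaperone of aromatic amino acid hydroxylases, stood at 7.41, 7.79 and 7.46 in TAK-875 mice, against 10.76, 8.17 and 9.86 in vehicle mice (-2.04 ± 0.47 SE, adjusted p = 0.0197). In all 3 genes the TAK-875 mice were closer together than the vehicle mice, and the vehicle mouse of pair 3 was the lowest of the vehicle mice.

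Slc41a2, a magnesium transporter, stood at 7.20, 8.09 and 7.75 in TAK-875 mice, against 10.36, 8.73 and 9.24 in vehicle mice (log2 -1.77 ± 0.39 SE, limma adjusted p = 0.0185). Gas6, the ligand of the receptor tyrosine kinases Axl and Mertk, stood at 6.70, 7.07 and 6.70 in TAK-875 mice, against 8.75, 7.51 and 8.53 in vehicle mice (-1.44 ± 0.34 SE, adjusted p = 0.022). Neither gene overlapped between groups. The remaining falls were those of Cfap221, a ciliary protein (-1.12), Mgat5, which branches N-glycans (-1.10, or -0.65 over the mean of its 2 probe sets, which was not called), Rpl37 (-1.06) and Dtna, a dystrobrevin (-1.01). The Rpl37 probe set can bind unrelated transcripts, and its level of 4.11 to 5.91 is low for a ribosomal protein gene. The fall of Dtna came from pair 2, with 2.97 in the TAK-875 mouse and 5.78 in the vehicle mouse, and without pair 2 the difference was -0.12.

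The second comparison asks where the response departs from the mean response of the other lines. It departed upward in Tmem18, Vapb, Rgs10 and Tcf7l2 and downward in Orm3, Prtn3, Rad51b, Msr1, Rpl37, Dtna and Mc2r. These 11 genes were called in limma (0.121% of all genes), with 4 above (0.044%) and 7 below (0.077%). Orm3 differed most, with -3.51 ± 0.76 SE between CC065/Unc and the other lines (adjusted p = 0.0213), whose mean response was 0.32. That call was lost without pair 2, 3 or 4 (adjusted p = 0.228, 0.113 and 0.0603). With unpaired arrays Orm3, Prtn3 and Mc2r were not called (adjusted p = 0.0741, 0.0798 and 0.0727). In Vapb the difference was 1.02 ± 0.19 SE (adjusted p = 0.00599), and the mean of the other lines was 0.02. Mc2r, the receptor for adrenocorticotropic hormone, stood at 3.58, 3.33 and 3.40 in TAK-875 mice, against 4.61, 4.01 and 4.37 in vehicle mice, low values throughout, and differed from the other lines by -0.97 ± 0.23 SE (adjusted p = 0.0473). With centred arrays 3 genes were above and 21 below, and without pair 2 there were 1 above (Vapb) and 1 below (Msr1). Without pair 4 there were 0 above and 3 below, with Dtna the called gene that remained, and without pair 3 there were 48 above and 23 below. With the mean of all probe sets of a gene, Msr1 differed by -0.37 (adjusted p = 0.495), and Tcf7l2 and Mc2r were also not called (adjusted p = 0.0587 and 0.0565).

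Genes that answered the drug in the other lines were also counted by their direction here. The mean response of the other 43 lines, from arrays that CC065/Unc does not share, was called for 2487 genes (27.4%), 1358 higher (14.9%) and 1129 lower (12.4%). Of the 1358, 1072 (78.9%) were higher in CC065/Unc, where 66.4% of all genes were. Of the 1129, 500 (44.3%) were lower, where 33.6% of all genes were. After quantile normalization the shares were 67.5%, against 52.8% of all genes, and 56.3%, against 47.2%. Among the genes that rose in CC065/Unc 7 of 14 were called the same way in the other lines, and among those that fell 2 of 11. Over all genes the correlation of the response with the mean of the other lines was 0.167, the 39th highest of the 44 lines, as a description across genes.

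Single genes show the spread of that likeness. Ehhadh, Pctp and Acaa1b were higher in all 43 other lines, by 0.80, 0.87 and 0.58 on average, and the contrasts of 0.40, 0.27 and 0.57 with CC065/Unc did not pass (limma adjusted p = 0.658, 0.777 and 0.462). Vnn1, a pantetheinase and PPARA target, stood at 9.11, 8.44 and 8.26 in TAK-875 mice, against 8.82, 8.41 and 7.96 in vehicle mice. That is a difference of 0.21 ± 0.43 SE, against 1.00 in the other lines, and CC065/Unc ranked 40th of 44. Alas1, the first enzyme of haem synthesis, differed by -0.34 ± 0.58 SE, against 0.61 in the other lines, and ranked 43rd. Dio1, which activates thyroid hormone, differed by -0.67 ± 0.50 SE, against -1.22, and Serpina6, the carrier of corticosteroids in blood, by -0.09 ± 0.46 SE, against -0.67. None of these 4 contrasts passed (adjusted p = 0.562, 0.618, 0.768 and 0.732).

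**Figure D4:**
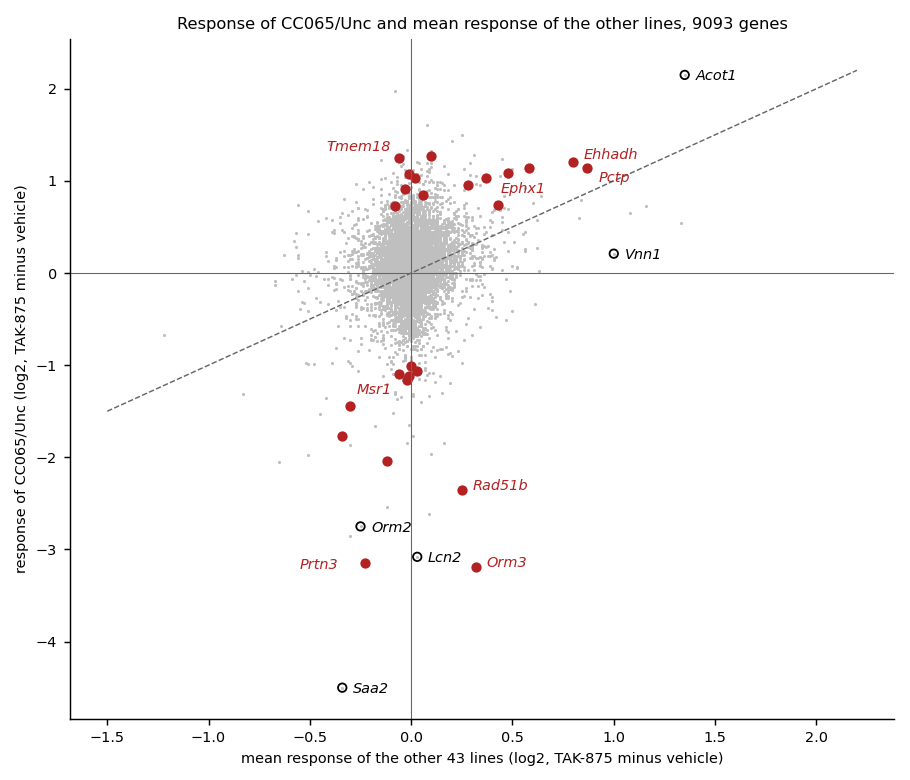
Response of CC065/Unc (vertical axis) against the mean response of the other 43 lines (horizontal axis), both as log2 TAK-875 minus vehicle, for 9093 genes (grey). Red points are the 25 genes called in CC065/Unc, open circles named genes that were not called, and the dashed line marks equal responses. Ehhadh and Pctp lie near the dashed line, and Orm3, Prtn3 and Rad51b lie far below it.

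The third comparison asks how the vehicle livers of CC065/Unc differ from those of the other lines. Acute phase genes were high and PPARA targets low. In limma 1656 of 9093 genes were called (18.2%), 548 higher (6.03%) and 1108 lower (12.2%). That split turned with scaling, to 934 higher and 587 lower with centred arrays and to 726 higher and 750 lower after quantile normalization, so directions of small differences are not read. Of the genes called, 1105 were called under all 3 scalings. Without pair 2 there were 283 higher and 578 lower, and without pair 4 there were 388 higher and 699 lower.

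Several of the largest vehicle differences were present in the TAK-875 mice as well. Eci3, a peroxisomal isomerase of fatty acid oxidation, stood at 8.58, 8.24 and 8.69 in the vehicle mice of CC065/Unc, against a mean of 3.75 in the other lines (3.04 to 8.50), and at 7.93, 8.09 and 8.90 in its TAK-875 mice. It was the highest of the 44 lines, with a log2 difference of 4.75 (adjusted p = 1e-50). Akr1c18, a hydroxysteroid dehydrogenase that inactivates progesterone, was higher by 4.05, Ugt3a2, a glycosyltransferase, by 3.57 and Col5a2, a collagen chain, by 3.93, each within the range of the other lines. Among the lowest were Cyp2j6, a cytochrome of fatty acid epoxidation (-3.25), the glutathione transferases Gstm3 (-3.24) and Gstm6 (-2.45), Enho, which encodes the peptide adropin (-3.22), Cyp2b10 (-2.91) and Otud6b (-3.87). Sequence differences between the lines and the array's probes can also set such gaps, and their part was not tested.

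Vehicle levels of the genes called in the response share the vehicle arrays with it. A low or high vehicle level by itself shifts the response, so the counts below are not separate support. All 14 genes that rose were called lower in the vehicle mice of CC065/Unc than in the other lines, where 12.2% of all genes were. Of the 11 that fell 10 were called higher, where 6.03% of all genes were. Abcc3 was lower than in the other lines by 2.16 in vehicle mice, the lowest of 44 lines, and its level in TAK-875 mice was also the lowest. Dnajc12 was higher by 1.76 in vehicle mice, the highest of 44 lines, while in TAK-875 mice it differed by -0.17. Orm3 was the exception, with a vehicle difference of -0.52 (limma adjusted p = 0.612), and in TAK-875 mice it was the lowest of the lines, by -4.03.

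PPARA targets had low vehicle levels. Of the 43 genes 18 were called lower than in the other lines and 0 higher, against 12.2% and 6.03% of all genes, and the median difference was -0.31, against -0.08 for all genes. After quantile normalization it was -0.26, against 0.00. Acot1, Aldh3a2, Plin2, Plin5, Pex11a and Eci2 had the lowest vehicle level of the 44 lines. The share of all genes at that lowest rank was not counted, so these ranks are descriptions of single genes. Acot1 was lower by 2.93 (limma adjusted p = 1.7e-10), and in TAK-875 mice by 2.13, again the lowest of the lines. Plin2, which coats lipid droplets, stood at 10.08, 10.48 and 10.52 in vehicle mice of CC065/Unc, against 10.71 to 11.83 over the means of the other lines, so that all 3 mice lay below every other line mean.

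Among the acute phase genes Orm2 had the largest vehicle difference, 3.28 above the other lines (limma adjusted p = 0.00083). Its 3 vehicle mice, at 11.40 to 12.78, lay above all other line means, the highest of which was 10.73. Mt1 was higher by 2.51 (adjusted p = 0.01), Socs3 by 1.34 and Steap4 by 1.35, each the highest of the 44 lines. Without the vehicle mouse of pair 2 the differences were 0.64 in Socs3 and 0.45 in Steap4, against 2.10 in Mt1 and 2.92 in Orm2. Saa2 and Lcn2, higher by 1.98 and 0.77, did not pass (adjusted p = 0.247 and 0.627). In TAK-875 mice Mt1 and Steap4 were close to the other lines, with differences of 0.10 and 0.05. Dbp, a clock output gene, stood at 6.45, 9.12 and 7.53 in vehicle mice and was higher than in the other lines by 2.58 (adjusted p = 0.00552), with 6.51, 9.44 and 8.74 in TAK-875 mice. Hint3, a nucleotide hydrolase, differed between pairs: both mice of pair 3 stood at 7.71 (TAK-875) and 7.84 (vehicle), against 5.88 and 5.87 in the other TAK-875 mice and 5.14 and 4.74 in the other vehicle mice.

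**Figure D5:**
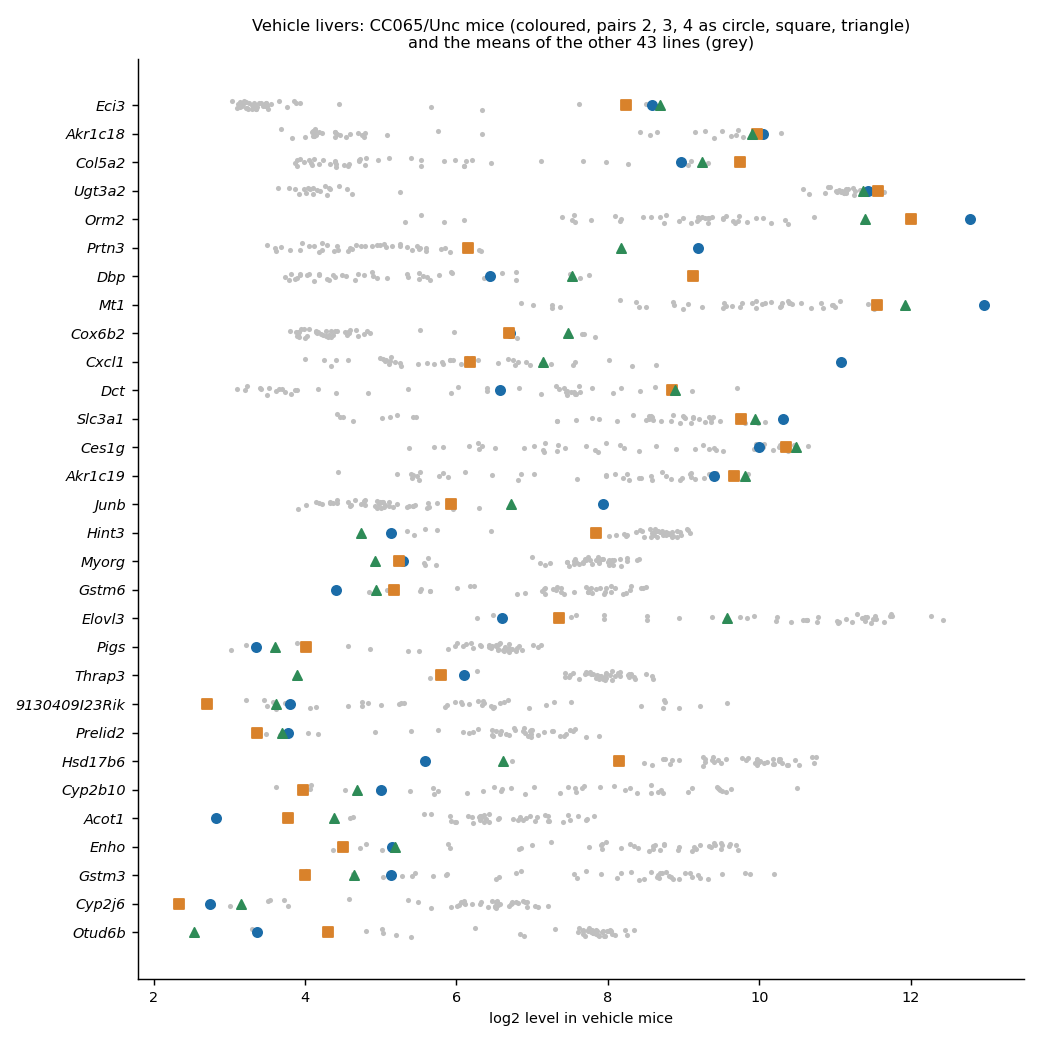
Log2 level in vehicle mice (horizontal axis) of the 15 genes most above and the 15 most below the other lines. Coloured symbols are the 3 CC065/Unc mice (circle pair 2, square pair 3, triangle pair 4) and grey points the means of the other 43 lines. Eci3 is at 8.24 to 8.69 in CC065/Unc while the other lines average 3.75, and the Hint3 square lies apart from the other CC065/Unc symbols.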

How the data were processed

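Per the submitters' processing notes, the authors ran RMA in Affymetrix Power Tools, which gave the deposited log2 value of each probe set, with versions not given in the sources used here. It has 16397 probe sets with values from 1.62 to 13.81. Of these, 13083 name 1 gene, and each of 9093 genes was taken through its probe set with the highest mean. Symbols, chromosomes and promoter sequences are from RefSeq (GRCm38.p6). Scanner signals were not used here, so no gene was removed as undetected, and the number of arrays limits the precision.

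Each TAK-875 minus vehicle difference was formed within a study pair, since matched pairs are what the labels describe. Deviations of arrays with 1 pair number correlated by 0.131, -0.051 and -0.080 in CC065/Unc, and by 0.036 on average over 171 pairs. The 171 differences were fitted in limma 3.58.1 (R 4.3.3) with 1 mean per line and trended eBayes variance on 127 residual degrees of freedom. Contrasts tested CC065/Unc against 0 and against the mean of the other 43 lines. Vehicle arrays were fitted likewise, and the 43 line means were tested against 0. Tests are two-sided with Benjamini-Hochberg adjustment over all genes at 0.05. P-values of the response, of its contrast with the other lines and of vehicle levels measure the spread between pairs or mice within lines. That contrast therefore leaves out the spread between lines, which the ranks describe. P-values of the mean response of the other lines measure the spread between the 43 line means. The fit was also run on simulated data, with independent noise and 1 spread per gene for all lines and doses. That run cannot show how the wider scatter of the CC065/Unc vehicle arrays affects the calls.

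The genes named are the 15 largest rises and the 10 largest falls with 1 direction in all 3 pairs, up to 10 genes each way called against the other lines, 15 each way in vehicle mice, the 12 largest responses of the other lines, up to 4 members of each of 39 lists (756 members measured), and bile acid genes. Other list members, and the sequences and motifs shown, were picked with their values in view. The line, its lists and its genes were chosen with earlier results of these data known. Of all probe sets used, 349 may bind unrelated transcripts by their class. Ranks and TAK-875 levels against other lines are descriptions with no test. Alternatives were other scalings, a filter on dim genes, the mean of all probe sets, constant prior variance, pairs left out, unpaired arrays, and CC065/Unc alone. Python 3.11.15, pandas 2.3.3, numpy 2.4.6 and matplotlib 3.10.9 made the tables and figures.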

Additional observations from a re-analysis of the deposited data

Results flagged for a closer look

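The response of 11 genes in CC065/Unc differed from the mean response of the other 43 lines in limma, by a test of the difference itself. Orm3 differed by -3.51 on the log2 scale (adjusted p = 0.0213), Prtn3 by -2.92 (adjusted p = 0.035) and Rad51b by -2.61 (adjusted p = 0.021). Msr1 differed by -1.14, Rpl37 by -1.09, Dtna by -1.02 and Mc2r by -0.97 (adjusted p = 0.021, 0.0297, 0.0381 and 0.0473). Tmem18 differed by 1.31, Vapb by 1.02, Rgs10 by 0.94 and Tcf7l2 by 0.81 (adjusted p = 0.0272, 0.00599, 0.0251 and 0.0272). Each of the 7 genes below has the lowest response of the 44 lines and each of the 4 above the highest. With the mean of all probe sets of a gene, Msr1 differed by -0.37 (adjusted p = 0.495), and Tcf7l2 and Mc2r were also not called (adjusted p = 0.0587 and 0.0565). Dtna rests on pair 2. None of the 11 differences passed in all 3 fits that left out 1 pair. Vapb and Msr1 passed without pair 2, but without pair 4 they did not (adjusted p = 0.35 and 0.322), nor did Msr1 without pair 3 (0.0613). Orm3 did not pass in any of these fits (adjusted p = 0.228, 0.113 and 0.0603 without pair 2, 3 or 4). With unpaired arrays Orm3, Prtn3 and Mc2r did not pass (adjusted p = 0.0741, 0.0798 and 0.0727).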

How the results depend on the processing

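The number of genes called depended on the scaling and on the pairs, and no named value changed sign past the threshold. In the response, 14 genes were higher and 11 lower. Centred arrays gave 6 and 32, and a further quantile normalization gave 9 higher. Without the dimmest 25% of genes 6 were lower. With 19 other-line pairs of poor arrays left out there were 41 and 27, and with no replicate block 9 were higher. The 3 CC065/Unc pairs alone gave 1 and 1, with 414 higher and 222 lower at an unadjusted p under 0.05. Leaving out 1 pair gave 2 to 70 higher and 1 to 31 lower.

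Against the other lines, 4 genes were higher and 7 lower. Centred arrays gave 21 lower, quantile normalization 15 lower, the filter on dim genes 3 lower, and the removal of poor pairs 16 higher and 17 lower. Leaving out 1 pair gave 0 to 48 higher and 1 to 23 lower. The 0 came without pair 4, where 277 were higher at an unadjusted p under 0.05. With no replicate block 4 were higher and 5 lower. In vehicle mice centred arrays gave 934 higher and 587 lower, against 548 and 1108 as deposited, and leaving out 1 mouse gave 283 to 411 higher and 578 to 1052 lower. The mean response of the other lines gave 1358 higher and 1129 lower, and 1758 and 1507 with pairs as the unit. The study pairs come from the labels, and without the block the response calls of Orm3, Pctp, Abcc3, Gm5817, Otud6b and Tcf7l2 were lost, as were those of Orm3, Prtn3 and Mc2r against the other lines. With the mean of all probe sets of a gene the response calls of Msr1, Mgat5 and Tcf7l2 were lost (adjusted p = 0.298, 0.197 and 0.0618). Causes were not tested.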
